A study of Triticum aestivum with 8 samples.

Results

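The regions described here are 19606 loci of the wheat genome that were accessible in endosperm at 5 days after pollination (DAP5) and were not listed as accessible at DAP9, DAP15 or DAP20. They were chosen by merging the accessible chromatin regions (ACRs) of the 4 stages into 180461 loci, wherever ACRs overlapped by at least 1 bp, and by keeping loci that held an ACR of the DAP5 list and of no other list. They are called DAP5-only loci below, and the counterparts of the other stages DAP9-only, DAP15-only and DAP20-only loci. Since presence in the lists chose these loci, their number and their absence from the other lists are a description, and not a test.

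The ACRs came from ATAC-seq, in which the Tn5 transposase cuts DNA that is not wrapped in nucleosomes. All samples were of the bread wheat cultivar AiKang58 (AK58), grown in a greenhouse after vernalization, with no treatment that differed between groups. Endosperm without the embryo was taken at days 5 and 9 and whole seed at days 15 and 20, with 2 sample records per stage, so that DAP5 and DAP9 share a tissue while the seed of the later stages also holds the embryo, and stage and tissue cannot be told apart between DAP9 and DAP15. For each stage there was 1 list of ACR coordinates and no list per replicate, so that a difference between stages cannot be set against replicate error, and the depth behind a list is unknown. Whether a locus that misses a list was closed or lay just under the calling threshold cannot be told apart from coordinates. The build of the wheat genome behind the coordinates was not given in the sources used here, and the positions below, counted from 1, are those of the authors' lists.

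Accessible regions are where transcription factors reach DNA, and many promoters and enhancers are found among them. The early cereal endosperm begins as a syncytium, in which nuclei divide without walls, then forms cells, and passes through a phase of cell division. Starch and the gluten proteins, namely glutenins and gliadins, are laid down mostly afterwards, during grain filling. Bread wheat has 3 subgenomes, A, B and D, whose chromosomes form homoeologous groups. Genes, motifs and sequence of the loci were not analysed here.

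To ask how DAP5 loci were shared with later stages, the 104340 loci with a DAP5 ACR were sorted by the other lists found in them. DAP5-only loci made up 18.8% of them (Wilson 95% interval 18.6 to 19.0%, which covers counting error only), and 10.9% of all loci of the series. DAP9, the next stage of the same tissue, was the list that most DAP5 loci shared, and 15008 loci (14.4%) were found in DAP5 and DAP9 alone. Against the DAP9 list by itself, 29741 DAP5 loci (28.5%) had no counterpart. Against DAP15 alone the number was 44628 (42.8%), and against DAP20 alone it was 47869 (45.9%). Some loci that were absent from DAP9 were listed again in seed, namely 2844 with DAP15, 3698 with DAP20 and 3593 with both. The number of DAP5-only loci depended on DAP9 most, and without the DAP9 list it was 35955 loci, while without the DAP15 list it was 22848 loci.

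**Figure D1:**
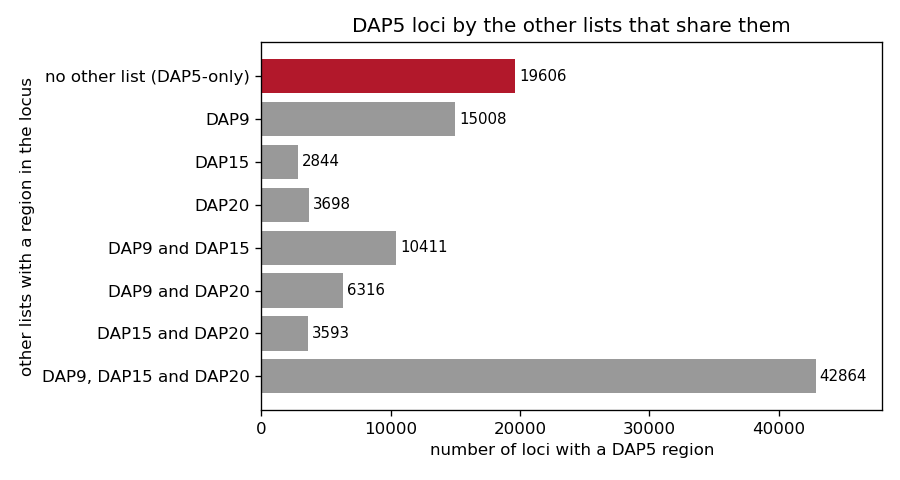
Number of loci with a DAP5 ACR (horizontal axis) for each combination of other lists that share the locus (vertical axis), 1 list per stage. DAP5-only loci (red) number 19606 and are outnumbered only by the 42864 loci found in all 4 lists.

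Each DAP5-only locus consisted of 1 ACR. Together they covered 9.39 Mb, which was 11.4% of the base pairs in the DAP5 list. They were narrow, with a median of 350 bp, a mean of 479 bp (SD 217 bp over loci) and a 90th percentile of 763.5 bp. The DAP5 ACRs found with every other list had a mean of 951 bp and a median of 754.5 bp, and those found with DAP9 alone a mean of 673 bp. Of the DAP5-only loci, 2.78% were at least 1000 bp wide, against 13.5% of the DAP5 ACRs shared with DAP9 alone and 30.9% of those in all 4 lists. A narrow ACR meets another list less easily than a wide one, so that width and the rule are tied, and no test was made.

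Among loci of a single stage, DAP5-only loci had the widest upper tail. The share of at least 1000 bp was 1.31% for DAP9-only, 1.52% for DAP15-only and 0.792% for DAP20-only loci. Whole lists differed in width too. The DAP5 list covered 82.3 Mb with 108846 ACRs and the DAP9 list 79.9 Mb with 101620. The DAP15 list covered 70.3 Mb with 105578 ACRs and the DAP20 list 56.6 Mb with 104407. How far the upper tail follows the width of its list was not tested. At least 2000 bp was reached by 37 DAP5-only loci, against 1 DAP9-only, 8 DAP15-only and 3 DAP20-only loci. These 37 loci lay on 17 chromosomes, 7 of them in subgenome A, 16 in B and 14 in D. In the outer 20% of a chromosome at either end lay 31 of the 37, and 65.4% of all DAP5-only loci. Most ACR widths moved in steps of 150 bp from 350 bp upward, and 46.6% of DAP5-only loci measured exactly 350 bp, 20.3% measured 500 bp and 8.54% measured 650 bp. A width under 350 bp was found for 8.28% of DAP5-only, 0.715% of DAP9-only and 37.0% of DAP20-only loci, and for no DAP15-only locus. A width off these steps was found for 16.5% of DAP5-only loci, against 1.12% of DAP9-only, 3.94% of DAP15-only and 48.0% of DAP20-only loci. Among the other DAP5 ACRs, that share was 16.1% for those found with DAP9 alone and 19.5% for those in all 4 lists, and it was 39.6% over the whole DAP20 list.

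**Figure D2:**
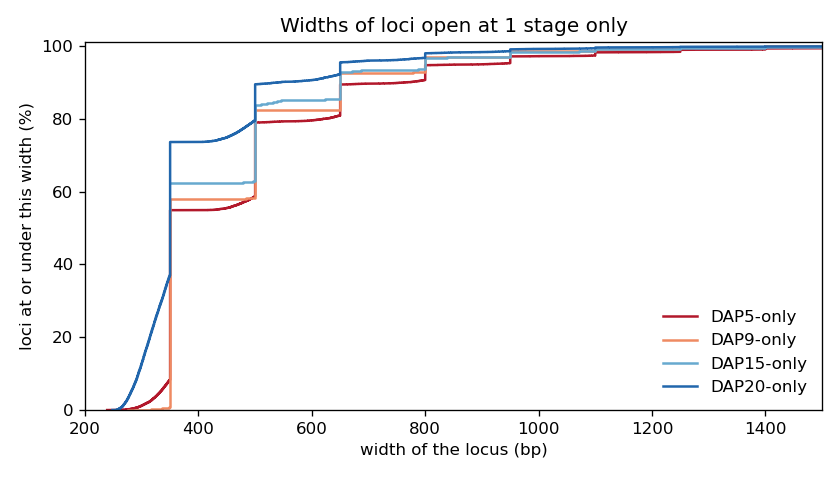
Cumulative share of loci (vertical axis, %) at or under a width (horizontal axis, bp) for loci present in 1 list only. The DAP5-only curve lies lowest beyond 650 bp, since 2.78% of these loci reach 1000 bp, and the steps at 350, 500 and 650 bp are common to the lists.

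The 10 widest DAP5-only loci were examined singly. The first was an ACR of 4532 bp on chromosome 5A (554070783 to 554075314), which had its nearest ACR of another list 1813 bp away, in DAP15. The second, of 3050 bp, was found on 7D (384939516 to 384942565), 1063 bp from a DAP9 ACR. The third measured 2750 bp on 3A (674750678 to 674753427) and lay 266 bp from an ACR found at DAP9 alone. These 3 loci thus stood beside ACRs of later stages without touching them. The fourth, of 2711 bp on 7A (717743991 to 717746701), was remote, with 62453 bp to the nearest ACR of any other list.

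Of the next 3, the locus of 2600 bp on 2D (367502113 to 367504712) had a DAP9 ACR within 1620 bp but no DAP15 ACR within 260329 bp and no DAP20 ACR within 260540 bp. The second locus of 2600 bp was on 6B (52115354 to 52117953), with DAP20 at 1449 bp and DAP9 at 1473 bp. A locus of 2390 bp on 2D (509942767 to 509945156) had all 3 later lists between 877 and 1197 bp away. The last 3 all measured 2300 bp. One was on 1D (486116055 to 486118354), 1097 bp from DAP15, and the other pair was on 2B, at 22782729 to 22785028 with DAP9 at 368 bp, and at 436237096 to 436239395 with DAP9 at 21739 bp, DAP15 at 197404 bp and DAP20 at 208667 bp. Of the 10 widest loci, 8 therefore had an ACR of a later stage within 2000 bp, against 43.9% of all DAP5-only loci. Of the 37 loci of at least 2000 bp, 7 (18.9%) had one within 1000 bp, against 29.8% of all DAP5-only loci. The median distance of these 37 was 1716 bp, against 2708 bp.

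The same was asked of all members. The median distance from a DAP5-only locus to the nearest ACR of any other list was 2708 bp. It was 3180 bp for DAP9-only, 2696 bp for DAP15-only and 4352 bp for DAP20-only loci, each set against its own 3 other lists. Within 500 bp of another list's ACR lay 3286 DAP5-only loci (16.8%), within 1000 bp 5847 loci (29.8%) and within 5000 bp 12210 loci (62.3%), while 2094 loci (10.7%) were over 50000 bp from any. To single lists, the median distance was 5267 bp for DAP9, 6845 bp for DAP20 and 7614 bp for DAP15. DAP5-only loci were hence closest to the ACRs of DAP9, although the DAP9 list had the fewest ACRs, with 101620 against 105578 at DAP15 and 104407 at DAP20. It covered more of the genome than these, with 79.9 Mb against 70.3 and 56.6 Mb.

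The loci close to another ACR were then sorted by what that neighbour held. Of the 3286 DAP5-only loci within 500 bp, 2038 (62.0%) lay beside a locus that also held a DAP5 ACR. In 892 of these cases, or 27.1% of the 3286, it was a locus of all 4 lists. The other 1248 (38.0%) lay beside a locus with no DAP5 ACR, most often one of DAP20 alone (382 loci), of DAP15 alone (336 loci) or of DAP9 alone (251 loci). This order is also that of the class sizes, since the series held 23236 DAP20-only, 20671 DAP15-only and 10344 DAP9-only loci. In these places, an ACR at DAP5 and a locus of 1 or more later stages lay side by side without overlap. Beyond 50000 bp, 52.5% of the nearest loci held a DAP5 ACR, and among all loci with an ACR of DAP9, DAP15 or DAP20 the share was 52.7%. Of these 160855 loci, 42864 were of all 4 lists, a proportion close to the 27.1% found within 500 bp. Standing beside loci of all 4 lists was thus not particular to DAP5-only loci with a close neighbour. Width varied little with distance, from a mean of 468 bp within 500 bp to 490 bp from there to 5000 bp and 454 bp beyond 50000 bp.

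The rule rests on single bases at its edge. Just inside, 1 DAP5-only locus of 350 bp on 6D (57900907 to 57901256) touched a DAP20 ACR with a distance of 0 bp, and a locus of 650 bp on 1B (669060069 to 669060718) and one of 350 bp on 1D (409018299 to 409018648) lay 1 bp from a DAP20 ACR. In all, 54 members lay within 10 bp and 232 within 50 bp. Just outside, DAP5 ACRs on 2A (768518188 to 768518537), 2D (638379702 to 638380018) and 7A (83726370 to 83727019) overlapped another list by 1 bp, 47 ACRs overlapped by at most 10 bp and 274 by at most 50 bp. With a reciprocal overlap of 50% required in place of 1 bp, 31316 DAP5 ACRs were without a counterpart.

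Position on the chromosome was not used by the rule. Wheat chromosomes carry most genes towards their ends, where recombination is also most frequent. In the outer 20% of a chromosome at either end lay 12827 DAP5-only loci, or 65.4% (64.8 to 66.1%), against 61.7% of all loci of the series. Taken per chromosome, the share was 3.70 percentage points higher than that of loci in all 4 lists (SD 4.05 over 21 chromosomes) and higher on 19 of them, the exceptions being 4B and 5D (two-sided sign-flip permutation test over chromosomes, p = 0.00083, adjusted over 4 comparisons 0.00083). It was 9.04 points higher than for DAP9-only loci, on 20 of 21 chromosomes with 4D as the exception, and 11.1 points higher than for DAP15-only loci, on 20 of 21 with 4B as the exception. It was lower than for DAP20-only loci, by -5.78 points and on 21 of 21 chromosomes. These 3 permutation tests each gave p = 1e-05 (adjusted 1.33e-05), the smallest p that the resamples allow. Chromosomes are the units here and are not biological replicates. The tests treated all 21 as independent, although they form 7 homoeologous groups. Pooled over chromosomes, DAP5 loci shared with other lists lay on both sides of the 65.4%. Those shared with DAP20 alone had 72.1% at the ends, and those with DAP15 and DAP20 65.6%. The share was 64.6% with DAP9 and DAP20, 58.4% with DAP9 alone, 57.7% with DAP15 alone and 53.9% with DAP9 and DAP15. A share above the 61.7% of all loci was thus not particular to DAP5-only loci.

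The difference from loci in all 4 lists did not pass under 2 alternatives. With the 50000 widest ACRs of each list it was 1.51 points (permutation test, adjusted p = 0.134), and without the DAP9 list it was 0.441 points (adjusted p = 0.581). The differences from the other single-stage loci kept their direction and their side of the threshold in both, except that DAP9-only loci do not exist without the DAP9 list.

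Closer to the ends, the share of DAP5 loci that were DAP5-only went through a maximum. It was 23.0% in the last 1 Mb (227 of 987 loci, 20.5 to 25.7%) and 22.5% between 1 and 2 Mb. Between 2 and 5 Mb from the end it reached 27.3% (740 of 2708 loci, 25.7 to 29.0%), and it then declined to 24.1% up to 10 Mb, 22.4% up to 20 Mb, 20.5% up to 50 Mb and 17.8% up to 100 Mb. More than 100 Mb from an end it was 16.9% (8521 of 50353 loci, 16.6 to 17.3%). The share between 2 and 5 Mb was above that beyond 100 Mb on 21 of 21 chromosomes. The same was true of DAP20-only loci on 19 chromosomes, and of DAP9-only and DAP15-only loci on 3 of 21 chromosomes each. These distances had the highest and the lowest DAP5-only share over all chromosomes, so that the DAP5-only count in part repeats that choice. DAP9-only loci fell from 11.3% of the DAP9 loci beyond 100 Mb to 5.34% in the last 1 Mb. Along the relative length of the chromosome, a smaller rise of the DAP5-only share was seen between 40 and 45% of the length, at 19.6%, with 15.9% between 50 and 55%.

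**Figure D3:**
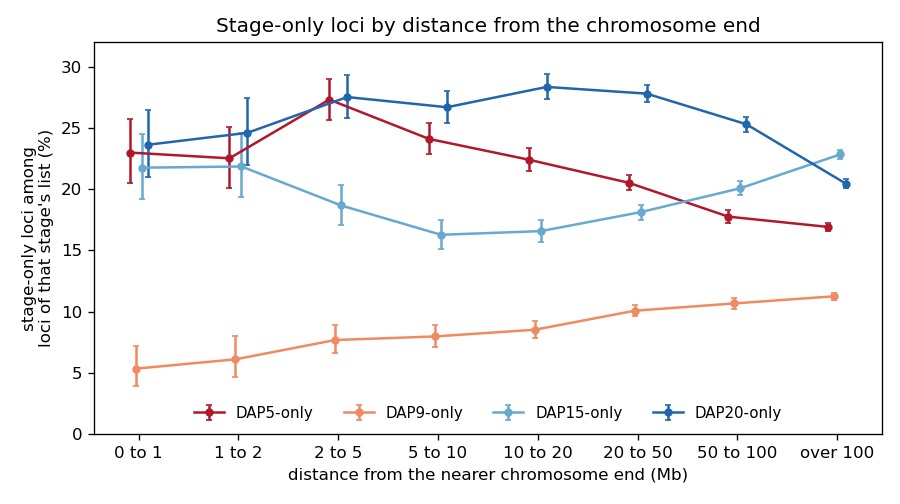
Share of a stage's loci that are found in its list alone (vertical axis, %) by distance from the nearer chromosome end (horizontal axis, Mb), for 1 list per stage; points are shares over all chromosomes and bars Wilson 95% intervals. DAP5-only loci peak at 27.3% between 2 and 5 Mb and decline to 16.9% beyond 100 Mb, whereas DAP9-only loci rise from 5.34 to 11.3%.

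The 2 ends of a chromosome did not take part equally. The last 10% of the coordinates held 5797 DAP5-only loci (29.6%) and the first 10% held 3308 (16.9%), a ratio of 1.75. This ratio was 1.63 for loci of all 4 lists and 1.58 for DAP20-only loci, but 1.06 for DAP9-only and 1.08 for DAP15-only loci. With the outer 20% at either side, the high-coordinate end had more DAP5-only loci on 20 chromosomes, and 7D was the exception, with 481 loci at the low end and 394 at the high end. The most uneven chromosome was 1B, with 8 loci at the low end and 399 at the high end. DAP5-only loci at the ends had a mean width of 488 bp, against 461 bp elsewhere, and a median distance of 2565 bp to other lists, against 2985 bp.

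To compare the subgenomes, DAP5-only loci were counted per chromosome. The 3 subgenomes held nearly equal numbers, with 6484 loci in A, 6565 in B and 6557 in D. Since the D chromosomes are shorter, the density was highest in D, at 1.66 ± 0.235 loci per Mb, against 1.31 ± 0.171 in A and 1.26 ± 0.237 in B (mean ± SD, n = 7 chromosomes each). A lay below D by -0.351 loci per Mb and B below D by -0.398 loci per Mb, each in 6 of 7 homoeologous groups (exact two-sided sign-flip permutation test, p = 0.0312, adjusted over 3 contrasts 0.0469). In both contrasts the exception was group 2, where 2D had 1.32 loci per Mb against 1.38 on 2A and 1.37 on 2B. A and B differed by 0.0469 loci per Mb, with A higher in 4 of 7 groups (exact permutation p = 0.859). Without group 4 the differences were larger, at -0.367 for A and -0.424 for B, and without 1B they were -0.334 and -0.318. None of these passed (adjusted exact permutation p = 0.0938 in each). The smallest p that 6 groups allow, 0.0312, would not by itself keep both contrasts from passing. With only those DAP5 ACRs whose width was on the 150 bp steps, over all 7 groups, the differences were -0.268 and -0.308. Neither passed (adjusted exact permutation p = 0.117). As numbers per chromosome, not divided by length, A minus D was -10.4 loci and B minus D 1.14 loci (adjusted exact permutation p = 1 for both).

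Relative to all DAP5 loci, no subgenome stood apart. DAP5-only loci made up 18.7 ± 1.51% of DAP5 loci on A chromosomes, 19.3 ± 1.09% on B and 18.3 ± 1.87% on D (mean ± SD, n = 7 chromosomes each). The largest of the 3 differences was 0.980 points for B minus D (exact permutation p = 0.234, adjusted 0.453). Over the 21 chromosomes, the density of DAP5-only loci and that of all DAP5 loci had a Pearson correlation of 0.902 and a Spearman correlation of 0.847, the first being part of the second.

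Single chromosomes also differed. The share of DAP5 loci that were DAP5-only was highest on 7A (22.0%, 1145 loci), 7D (21.2%, 1211 loci) and 6B (21.2%, 1150 loci), and lowest on 2D (15.9%, 862 loci) and 4D (16.3%, 678 loci). The density was highest on 7D, at 1.90 loci per Mb, and lowest on 1B, at 0.932. Chromosome 1B also had the lowest density of DAP9-only (0.478), DAP15-only (1.08) and DAP20-only loci (1.10 per Mb). Beyond its first 240 Mb, which held few loci of any list, 1B had 1.41 DAP5-only loci per Mb. On chromosome 4B, where DAP15-only loci made up 32.1% of DAP15 loci, against at most 22.8% on any other chromosome, the DAP5-only share was 17.9% and lay within the range of the others.

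**Figure D4:**
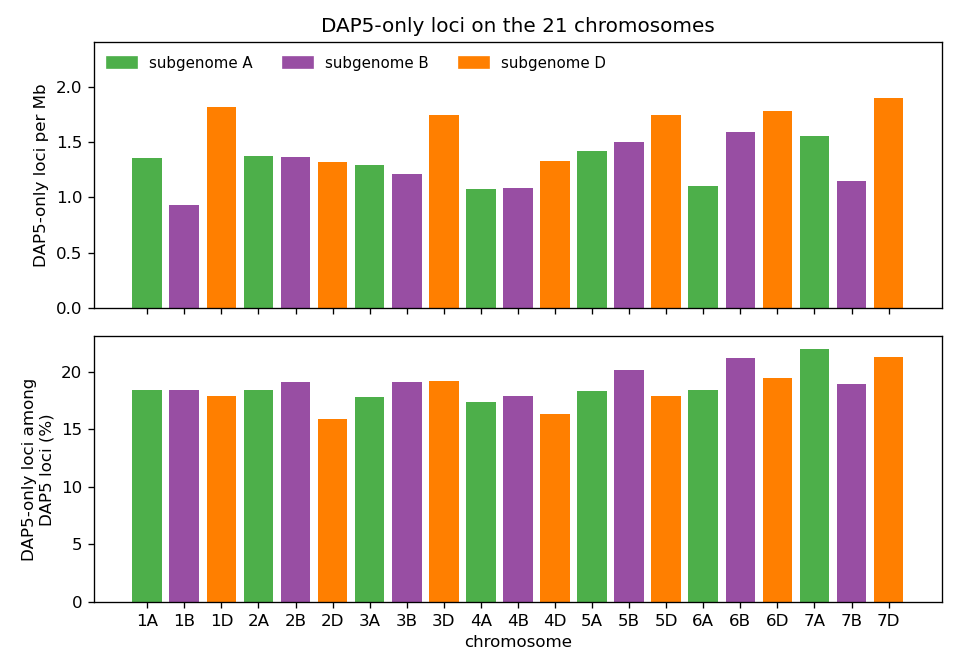
DAP5-only loci per Mb (upper panel) and as a share of DAP5 loci in % (lower panel) for the 21 chromosomes, coloured by subgenome; bars are single values with no error. The density is highest on 7D at 1.90 and lowest on 1B at 0.932 loci per Mb, while the share ranges from 15.9% on 2D to 22.0% on 7A.

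DAP5-only loci were often found next to each other. Of the 19606 loci, 5985 (30.5%) had another DAP5-only locus as a direct neighbour among all loci of the chromosome. The locus that followed a DAP5-only locus was itself DAP5-only in 17.2% of cases, against 10.9% of all loci, a ratio of 1.58. The ratio was 1.58 for DAP9-only, 1.36 for DAP15-only and 1.47 for DAP20-only loci as well, so that a tendency to stand together was common to loci of a single stage. The median distance from a DAP5-only locus to the nearest other one was 63.0 kb, and 1818 loci (9.27%) had another within 1000 bp.

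Uninterrupted runs of 5 or more DAP5-only loci numbered 48 and held 259 loci, of which 42 runs lay in the outer 20% of a chromosome. DAP9-only loci had 1 such run, which lay at an end. DAP15-only loci had 36, with 12 at the ends, and DAP20-only loci had 47, with 44 at the ends, so that the place of the runs was not particular to DAP5-only loci. The longest had 9 loci on 1B (682222559 to 682298399), all between 350 and 500 bp wide, within 75841 bp and with no locus of another list between them. DAP15-only loci reached a run of 11. The next were 2 runs of 7 loci on 5B, over 90327 bp (144725616 to 144815942) and over 200864 bp (559194205 to 559395068), 144.7 and 153.6 Mb from the nearer end, and 1 further run of 7 loci was found.

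In windows of 1 Mb, 6345 of 14073 windows (45.1%) held no DAP5-only locus, and 173 held 10 or more. Those 173 windows held 2216 loci, or 11.3% of all DAP5-only loci, and 167 of the windows lay in the outer 20% of a chromosome. Both ends together make up 40% of the length and hold 65.4% of DAP5-only loci. The 173 windows were found on all 21 chromosomes, with 20 on 7D, 14 on 7A and 3 on 4B. DAP20-only loci had 233 such windows, DAP15-only loci 46 and DAP9-only loci 1. Across all windows, the number of DAP5-only loci had a Spearman correlation of 0.469 with that of loci in all 4 lists, 0.429 with DAP20-only, 0.304 with DAP15-only and 0.298 with DAP9-only loci (n = 14073 windows, which share the chromosome position and whatever makes a window rich in ACRs).

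The fullest window was on 5B (691000001 to 692000000), with 39 DAP5-only loci among 80 loci of DAP5. The same window held 13 loci of DAP9, 47 of DAP15 and 39 of DAP20. Its DAP5-only loci had a median width of 350 bp and spread from 691092861 to 691963828. The second window, on 7D (4000001 to 5000000), had 29 DAP5-only loci among 84 loci of DAP5, with 49 of DAP9, 45 of DAP15 and 56 of DAP20, and its widest member measured 1678 bp. The third, on 1B (682000001 to 683000000), had 26 DAP5-only loci among 42 of DAP5, with 11 of DAP9, 24 of DAP15 and 17 of DAP20, and includes the run of 9 loci.

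In the 173 windows together there were 6784 loci of DAP5, 4396 of DAP9, 4556 of DAP15 and 5227 of DAP20. Since the windows were picked for DAP5 loci that miss the other lists, all 4 numbers are set in part by that choice and are given as a description.

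**Figure D5:**
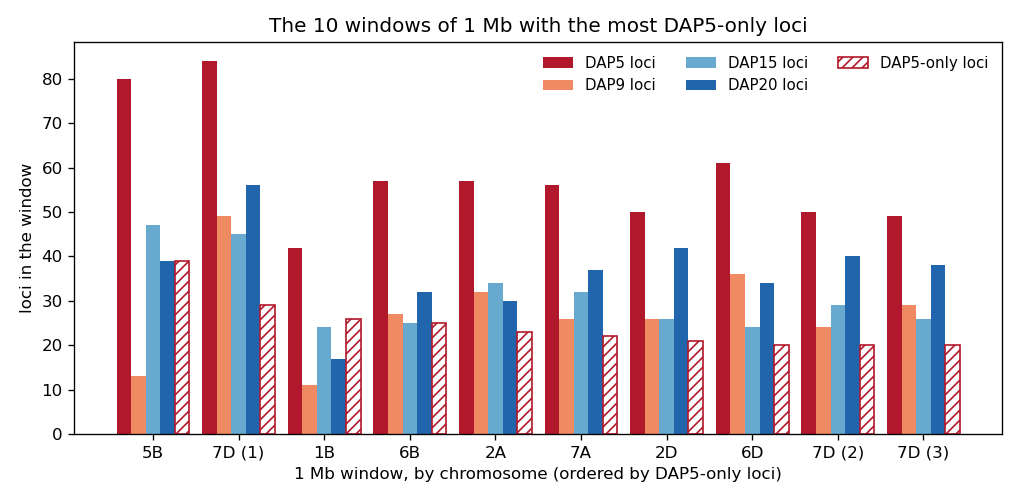
Number of loci (vertical axis) of each list, and of DAP5-only loci (hatched), in the 10 windows of 1 Mb with the most DAP5-only loci (horizontal axis, named by chromosome), 1 list per stage. In the first window, on 5B, 39 of 80 DAP5 loci are DAP5-only, and DAP9 has 13 loci against 47 of DAP15 and 39 of DAP20.

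The 3 most isolated DAP5-only loci were all on the low-coordinate part of 1B. A locus of 650 bp (30461583 to 30462232) was 14708938 bp from the nearest ACR of another list, one of 350 bp (26104688 to 26105037) was 10352043 bp away, and one of 307 bp (10008822 to 10009128) was 5356211 bp away. AK58 is known to carry the short arm of a rye chromosome in place of that of 1B. The first 240 Mb of 1B, a limit set after the counts had been seen, held 31 loci of all lists, 17 of DAP5 and 8 DAP5-only, or 0.0333 DAP5-only loci per Mb against 1.41 on the rest of 1B. The part of the rye arm in these counts was not tested.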

How the data were processed

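ATAC-seq reads were processed by the authors, who trimmed them (fastp in the methods, Trimmomatic 0.36 in the submitters' processing notes), aligned them with Bowtie2, removed duplicates with Picard, called raw peaks with MACS2, split these into bins of 150 bp, merged the bins whose Tn5 insertion density passed a minimum, and removed blacklisted and organelle-like peaks. The minimum, the genome build and the pooling of replicates were not given in the sources used here. The deposited files held coordinates of ACRs in bp, 1 list per stage attached to replicate 1, with no signal, so that depth is unknown. Intervals cover counting error only.

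Loci were merged at an overlap of 1 bp, and the largest coordinate in any list stood for chromosome length. The share at the ends was compared by sign-flip permutation over 21 chromosomes (100000 resamples) and subgenomes by exact sign-flip permutation over 7 homoeologous groups (smallest p 0.0156), with Benjamini-Hochberg adjustment and a threshold of 0.05. Members, lists and tests were chosen with earlier results of these data known. Named by rule were the 10 widest loci, the 3 longest runs, the 3 fullest windows, the 3 farthest and the 3 nearest loci, the 3 smallest overlaps, and the chromosomes with the highest and lowest values. Others were named after their values were seen.

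Alternatives were a minimum width of 300 or 350 bp, the 50000 widest ACRs, merging within 500 bp, 350 bp around midpoints, 50% reciprocal overlap, leaving out 4B, group 4, the DAP9 or the DAP15 list, ACRs on width steps, ends of 10% or 30%, covered base pairs, undivided numbers and windows of 5 Mb. Leaving out 1B and members within 1000 bp of another list was added after seeing the data. Code was tested on simulated data. The gene table at hand is of another build, since its genes lay beyond the last ACR on 21 of 21 chromosomes and 4.91% of loci in all 4 lists were within 1 kb of a gene boundary, against 4.52% after a shift of 1 Mb. Genes, motifs and sequence were therefore not analysed here. Tables were handled in pandas 2.3.3 under Python 3.11.15, tests used scipy 1.17.1 with numpy 2.4.6, and plots were drawn with matplotlib 3.10.9.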

Additional observations from a re-analysis of the deposited data

How the results depend on the processing

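Of 205 recalculated values, 154 stayed within the spread and on their side of the threshold, 35 moved, 9 lost the threshold, none gained it and 7 reversed. This spread cannot be replicate error, since there was no list per replicate, so these counts do not measure robustness. Values within the spread were not all close to the main ones. The number of DAP5-only loci, 19606 in the main setting, still counted as within it at 15344 with merging within 500 bp. It did so too at 24414 for midpoints and at 13759 for members over 1000 bp from other lists. The share of DAP5 loci, 18.8% in the main setting, counted as moved at 19.1% with ACRs on width steps. No paired analysis was possible because the ACRs of both replicates of a stage come as 1 list or from 1 of them, and leaving out a replicate was not run for the same reason. Alternatives for genes, GC content and motifs were not run, distances and runs were not given under reciprocal overlap, and widths were not given for midpoints. Leaving out 1B and members within 1000 bp of another list was chosen after seeing the data. Depth limits which ACRs were called, and is unknown. Apart from changes that follow from the construction of an alternative, the cause was not tested.

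The values below are the number of DAP5-only loci, their share of DAP5 loci, the share at least 1000 bp wide, the share at the ends, the share within 1000 bp of another list and the share beside another member, in this order where they moved. With the 50000 widest ACRs they were 9452 loci, 19.4%, 17.2% wide and 17.1% near, the end difference from loci of all lists was 1.51 points (permutation test, adjusted p = 0.134), and A minus B reversed to 0.299 points of the share. With a minimum width of 350 bp, 3.06% were wide and 29.1% near. Merging within 500 bp gave 16.1%, 4.80% wide, 13.8% near and 27.5% beside a member. Midpoints gave 22.5%, 39.2% near and 28.2% beside a member. Reciprocal overlap gave 31316 ACRs, 28.8%, 10.6% wide and 64.7% at the ends, with A minus D of the share reversed to -0.138 points. Without the DAP15 list they were 21.7%, 3.13% wide, 64.3% at the ends, 28.0% near and 34.1% beside a member. Without the DAP9 list they were 35955 loci, 33.8%, 7.46% wide, 62.3% at the ends, 22.7% near and 49.5% beside a member, the end difference from loci of all lists was 0.441 points (permutation test, adjusted p = 0.581), and the subgenome contrasts of the share reversed, to -0.237 points (A minus D) and -0.149 points (B minus D). With ACRs on width steps the share was 19.1% and 27.4% stood beside a member, and with members over 1000 bp from other lists the share was 13.2%. Ends of 10% and 30% held 46.4% and 78.2%.

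The density contrasts with D, in loci per Mb, were -0.268 for A and -0.308 for B on width steps (exact permutation test, adjusted p = 0.117), -0.367 and -0.424 without group 4 (adjusted p = 0.0938), and -0.334 and -0.318 without 1B (adjusted p = 0.0938), where A minus B reversed to -0.0164. As undivided numbers, A minus D was -10.4 loci, A minus B reversed to -11.6 and B minus D to 1.14 (exact permutation test, adjusted p = 1 for each).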
